A study of Mus musculus with 18 samples.

Results

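Acute phase proteins are plasma proteins whose synthesis changes with inflammation, infection or injury, and most of them are made by hepatocytes under the control of cytokines that act through STAT3, C/EBP and NF-kB transcription factors. Fat is a second source for several of them, and adipocytes secrete haptoglobin, lipocalin 2 and serum amyloid A3 in obese mice. A subset binds what leaks from damaged red cells: haptoglobin captures free hemoglobin, hemopexin captures free heme, and ceruloplasmin oxidizes iron so that it can be carried on transferrin. The transcripts of 9 such genes (Hp, Hpx, Saa3, Lbp, Orm1, Lcn2, Cp, Serpina3n and Itih4) were followed in epididymal white adipose tissue (eWAT). These 9 of the 21756 genes with values per library were chosen by gene symbol, with their differences between genotypes already known, so the genotype comparison of the 9 is a description and carries no test.

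RNA-seq was performed on eWAT, labelled gonadal white adipose tissue, from male mice on a C57BL/6J background that were about 4 to 6 months old and were fed a high-fat diet with 45% fat. The 5 Control f/f mice carry floxed Parkin alleles without Cre, and the 5 Parkin f/f Adiponectin (ParkinAdi) mice add to the same floxed alleles a Cre under the adiponectin promoter. That promoter is active in adipocytes, and not in the macrophages, mesothelium, vessels or other cells of the pad. Mice are named C1 to C5 and P1 to P5 in the order of the deposited columns, with 1 library per mouse. A second experiment used male wild-type C57BL/6J mice, injected at 2 months of age after 4 weeks of high-fat diet with AAV8-Nqo1, a virus that carries mouse Nqo1 behind a human adiponectin promoter, in the left pad and with AAV8-Control in the other pad, 4 weeks before the tissue was collected. For each vector 4 pads are labelled, vector and body side cannot be told apart, and the deposited table gives no value per pad.

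Each library has regularized log (rlog) values, which are on a log2 scale and shrink noisy differences, so they understate the changes of low genes. They hold no read totals and the depth of each library is unknown. Transcripts of the epididymis, the duct beside this pad, were present in the library of P2 (Ces5a at 20.05 against 5.59 to 8.45 in the other 9 libraries), as did P5 (Gpx5 at 12.70 against 4.12 to 5.89). Fabp4, the fatty acid binding protein of adipocytes, was at 18.07 to 19.91 in all libraries. The libraries fell into 2 sets by their trend with exon length, 6 with longer genes higher (C1, C2, C3, P1, P2 and P5) and 4 with longer genes lower (C4, C5, P3 and P4), and differences are also given within each set and without the library of P2.

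The 9 genes differed widely in level, and haptoglobin was among the most abundant transcripts of the pad. Levels between genes are compared here only per kb of annotated exon, from the authors' mean normalized count over all libraries of an experiment. Hp had a mean level of 58840 per kb in the Parkin experiment and ranked 27 of 21756 genes. It took 0.346% of all normalized counts there and 0.583% in the injected pads, where it ranked 12 per kb.

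A group of abundant members followed haptoglobin. Orm1 (orosomucoid 1, a carrier of lipophilic molecules) had a mean level of 13100 per kb, Serpina3n (a serine protease inhibitor) of 7875, and Lbp (lipopolysaccharide-binding protein) of 2229. Saa3 (serum amyloid A3, the isoform made mainly outside the liver in mice) was at 1319 per kb, Lcn2 (lipocalin 2, which binds bacterial siderophores) at 526.7 and Cp (ceruloplasmin, a copper-containing ferroxidase) at 390.3. All 7 ranked within the first 3714 genes per kb.

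Hpx and Itih4 stood far below. Hpx (hemopexin) had a mean level of 84.45 per kb and ranked 9957, and Itih4 (a member of the inter-alpha-trypsin inhibitor heavy chain family) had 12.13 and ranked 17285. The injected pads gave levels per kb of 316700 for Hp, 38280 for Orm1, 29430 for Serpina3n, 10660 for Lbp, 2071 for both Saa3 and Lcn2, 1419 for Cp, 193.4 for Hpx and 21.85 for Itih4. The order was thus the same in the 2 experiments except that Saa3 and Lcn2 were level in the injected pads. The 2 tables were normalized separately, so a level in one is not compared with that in the other, and their means carry no error.

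**Figure D1:**
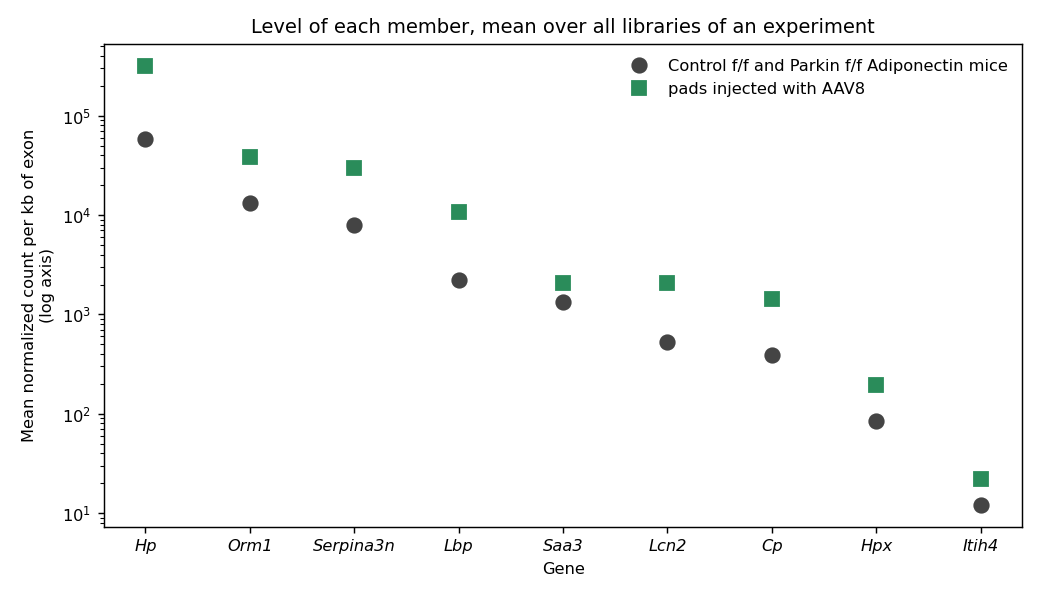
Level of each member as the authors' mean normalized count per kb of annotated exon (log axis), for the 10 libraries of the Parkin experiment (circles) and for the pads injected with AAV8 (squares). Hp is highest and Itih4 lowest in both, from 58840 to 12.13 per kb in the Parkin experiment and from 316700 to 21.85 in the injected pads.

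Paralogs can share reads with some members, since Orm1 has close copies in Orm2 and Orm3, Saa3 in Saa1 and Saa2, and Serpina3n in a cluster of Serpina3 genes. In the Parkin experiment Orm2 had a mean level of 719.8 per kb and Orm3 of 1182, against 13100 for Orm1. Saa1 and Saa2, the forms that the liver secretes into plasma, had mean levels of 12.09 and 6.11 per kb, against 1319 for Saa3. Cp overlaps Hps3 on the other strand, and strand use in the counting was not given in the sources used here, so reads in the shared stretch cannot be assigned.

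The promoters of Saa3, Hpx and Serpina3n, the members with at least 2 C/EBP matches in 1 promoter, are shown because C/EBP factors drive acute phase genes and are abundant in fat. The reference tables matched 6 of the 9 members (RefSeq, GRCm38.p6), with Hp, Orm1 and Lbp not among them. The 250 bases before the start were searched on both strands for the C/EBP motif (TTNNGNAA or TTGCNNAA), the STAT3 motif (TTCNNNGAA), the NF-kB motif (GGANTTNCC) and the HNF1 motif (GTTAATNAT). Matches are in capitals, all of them C/EBP, and each sequence is written 5′ to 3′ on the gene's strand.
Saa3 (chr7:46715677-46715926, minus strand): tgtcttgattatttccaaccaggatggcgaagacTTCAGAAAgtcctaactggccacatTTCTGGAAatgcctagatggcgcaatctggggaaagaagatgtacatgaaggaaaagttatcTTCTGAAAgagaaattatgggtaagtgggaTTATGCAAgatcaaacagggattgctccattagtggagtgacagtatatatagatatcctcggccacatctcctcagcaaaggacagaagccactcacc
Hpx (chr7:105600117-105600366, minus strand): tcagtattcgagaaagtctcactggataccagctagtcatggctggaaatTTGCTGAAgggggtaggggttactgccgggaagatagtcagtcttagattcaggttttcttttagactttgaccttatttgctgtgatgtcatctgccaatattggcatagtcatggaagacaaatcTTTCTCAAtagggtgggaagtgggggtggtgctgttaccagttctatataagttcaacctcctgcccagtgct
Serpina3n (chr12:104406458-104406707, plus strand): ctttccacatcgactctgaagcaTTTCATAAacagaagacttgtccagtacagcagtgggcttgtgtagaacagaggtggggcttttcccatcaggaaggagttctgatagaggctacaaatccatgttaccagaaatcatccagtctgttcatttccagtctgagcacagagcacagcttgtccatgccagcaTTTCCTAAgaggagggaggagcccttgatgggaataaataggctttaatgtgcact

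Saa3 held 4 C/EBP matches, whose first bases lie at −216, −191, −129 and −99 from the start, a number reached by 0.591% of the 32851 promoters in the table. Hpx held 2 (−200 and −73) and Serpina3n 2 (−227 and −56), a number reached by 10.9% of promoters. Lcn2 held 1 (−216) and each of the 2 starts of Cp held 1 (−206 and −70), and at least 1 such match is present in 36.8% of all promoters. The other matches were 1 HNF1 motif of Cp (−197, present in 0.737% of promoters) and 1 STAT3 motif of Itih4 (−51, in 7.02%), while the NF-kB motif, present in 3.15%, was in none of the 6. A match is a description of these letters and does not show binding.

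Hp, Hpx and Saa3 were high in 4 or 3 of 5 Control f/f mice and low in the ParkinAdi mice and in Control f/f mouse C3. Hp, on chromosome 8 (109575128 to 109579172, GRCm38), was at 16.70, 17.20, 15.67, 16.07 and 17.33 in C1 to C5 and at 15.91, 15.26, 15.99, 15.47 and 15.30 in P1 to P5. C1, C2, C4 and C5 lay above every ParkinAdi mouse, but C4 by a narrow margin over P3, and C3 lay among the ParkinAdi mice. The means were 16.59 ± 0.72 and 15.59 ± 0.34 (SD, n = 5 each), a difference of −1.01 with a standard error of 0.35. As in any bulk tissue, fewer cells that make a transcript and less of it per cell cannot be told apart.

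Hpx, on chromosome 7 (105591613 to 105600137), had the largest difference of the 9. It was at 6.69, 7.96, 4.80, 6.59 and 7.61 in C1 to C5 and at 4.51, 5.18, 4.90, 4.95 and 4.57 in P1 to P5. The 4 high Control f/f mice were separated from all others by more than 1 log2 unit, whereas C3 lay in the middle of the ParkinAdi mice. The means were 6.73 ± 1.23 and 4.82 ± 0.28, and the difference was −1.91 (standard error 0.56).

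Saa3, on chromosome 7 (46711998 to 46715700), spanned the widest range, 4.18 on the log2 scale within the Control f/f mice alone. It was at 11.25, 11.92, 8.83, 10.02 and 13.01 in C1 to C5 and at 9.14, 8.46, 10.39, 9.78 and 8.71 in P1 to P5. C1, C2 and C5 lay above all ParkinAdi mice, C4 lay below P3, and C3 lay below P1, P3 and P4. The means were 11 ± 1.63 and 9.29 ± 0.79, with a difference of −1.71 (standard error 0.81).

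**Figure D2:**
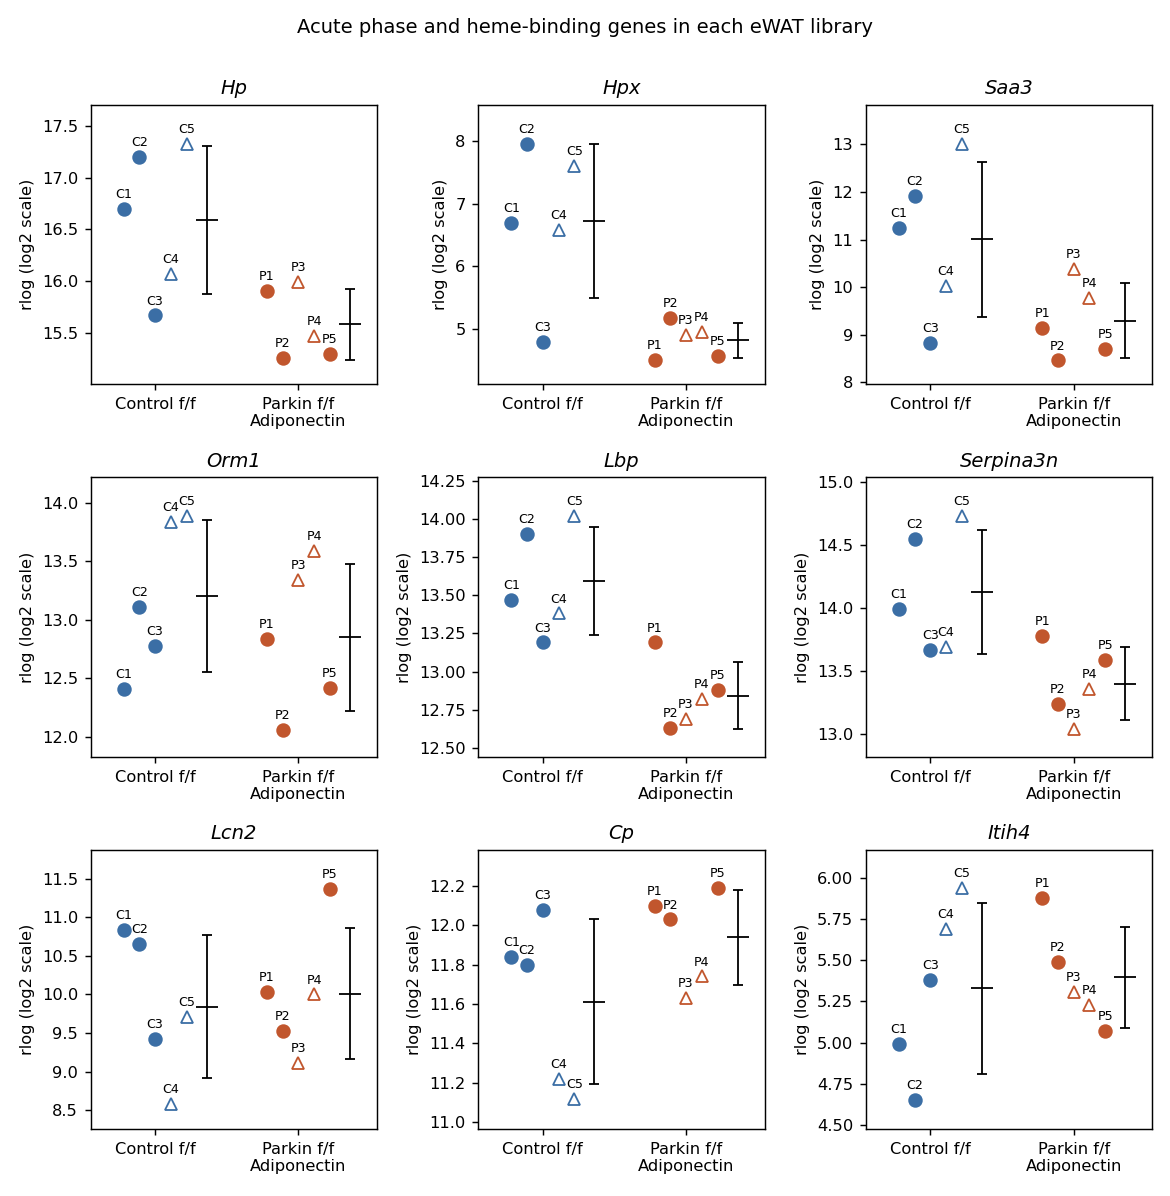
The rlog value (log2 scale) of each member in each mouse, with Control f/f in blue and Parkin f/f Adiponectin in orange. Filled circles are libraries with longer genes higher, open triangles those with longer genes lower, and bars give the mean ± SD of 5 mice. No member separates the genotypes completely: C3 lies with the ParkinAdi mice for Hp, Hpx and Saa3, and P1 reaches the lowest Control f/f mouse for Lbp.

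Lbp and Serpina3n showed smaller differences with less spread. Lbp, which hands bacterial lipopolysaccharide to CD14, lies on chromosome 2 (158306493 to 158332852) and was at 13.47, 13.90, 13.19, 13.38 and 14.02 in C1 to C5 and at 13.19, 12.63, 12.69, 12.82 and 12.88 in P1 to P5. Only P1 reached the Control f/f range, at the value of C3. The means were 13.59 ± 0.35 and 12.84 ± 0.22, a difference of −0.75 (standard error 0.19).

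Serpina3n, a mouse relative of human alpha-1-antichymotrypsin, lies on chromosome 12 (104406729 to 104414329). It was at 13.99, 14.55, 13.67, 13.69 and 14.73 in C1 to C5 and at 13.78, 13.24, 13.04, 13.36 and 13.59 in P1 to P5. C1, C2 and C5 lay above all ParkinAdi mice, while P1 lay above C3 and C4. The difference between the means of 14.12 ± 0.49 and 13.40 ± 0.29 was −0.72 (standard error 0.25).

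Orm1, Lcn2, Cp and Itih4 differed little between genotypes and overlapped broadly. Orm1, on chromosome 4 (63344560 to 63348163), was at 12.41, 13.11, 12.78, 13.84 and 13.89 in C1 to C5 and at 12.84, 12.06, 13.34, 13.59 and 12.42 in P1 to P5. In both genotypes the libraries with longer genes lower (C4, C5, P3 and P4) were the high ones, and the mean over the other set was lower by 1.06. The genotype difference was −0.36 (standard error 0.40), and it was −0.33 and −0.40 within the 2 sets.

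Cp, on chromosome 3 (19957054 to 20009145), ran the other way. It was at 11.84, 11.80, 12.08, 11.22 and 11.12 in C1 to C5 and at 12.10, 12.03, 11.63, 11.74 and 12.19 in P1 to P5. The same 4 libraries were here the low ones in each genotype, and the other set was higher by 0.58. The genotype difference was 0.33 (standard error 0.22), from 0.20 within the set with longer genes higher to 0.52 within the other.

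Lcn2, on chromosome 2 (32384633 to 32388252), was at 10.84, 10.65, 9.42, 8.58 and 9.71 in C1 to C5 and at 10.03, 9.53, 9.11, 10 and 11.37 in P1 to P5. Its highest library was P5 and its lowest C4, so that each genotype spanned 2.26. The difference was 0.17 (standard error 0.56), and 0.00 and 0.41 within the 2 sets. Its sign turned without P5, a library with epididymal transcripts (−0.17), without C4 (−0.15) and with library weights (−0.11).

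Itih4, on chromosome 14 (30886476 to 30902353), was at 4.99, 4.65, 5.38, 5.69 and 5.94 in C1 to C5 and at 5.88, 5.49, 5.31, 5.23 and 5.07 in P1 to P5. It was lowest in C2 and C1, where Hp, Hpx and Saa3 were high. The difference was 0.07 (standard error 0.27), and its sign turned between the sets, at 0.47 with longer genes higher and −0.55 with longer genes lower. It also turned without C1 (−0.02), C2 (−0.10) or P1 (−0.06).

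In the comparison over all 19012 genes that passed the filter on low values, all 9 members included, no gene passed an adjusted p of 0.05 in either direction (0% lower and 0% higher, limma with a two-sided test and Benjamini-Hochberg adjustment). At an unadjusted p under 0.05, 677 genes were lower in ParkinAdi mice (3.56%) and 278 higher (1.46%), and limma with library weights called 438 lower and 105 higher after adjustment. Of the members, 5 were on the lower side at the unadjusted threshold (Hp, Hpx, Saa3, Lbp and Serpina3n) and 0 on the higher side. The genotypes did not overlap for 144 genes lower (0.757%) and 58 higher (0.305%), and for 0 of the 9 members. A difference below 0 was seen for 6 of the 9, against 43.1% of all genes, with medians of −0.72 and 0.03. These counts come from the contrast with which the members were chosen and are given as description.

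The members varied more from mouse to mouse among Control f/f than among ParkinAdi mice. The SD was larger in Control f/f than in ParkinAdi mice for 9 of 9 members, against 33.1% of all genes, and the ratio of the 2 SDs ran from 1.03 for Orm1 to 4.41 for Hpx. The Control f/f mice spanned at least 1 log2 unit for 7 of 9 members, against 33.5% of all genes. The median SD of the members was 0.65 in Control f/f and 0.31 in ParkinAdi mice, and that of all genes was 0.33 and 0.38. By range, Orm1 spanned 1.47 in Control f/f and 1.52 in ParkinAdi mice, and Lcn2 2.26 in both. Epididymal transcripts of P2 and P5 enter the ParkinAdi spread of all genes. For Ces5a the SD was 6.4 in ParkinAdi and 1.03 in Control f/f mice. The shares were not computed without these libraries. They also use values that entered the choice of the members and were not tested.

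C5, C2 and C1 held most of the high values. C5 was the highest of all 10 libraries for 6 of 9 members, P5 for 2 (Lcn2 and Cp) and C2 for 1 (Hpx), and C5 was among the 3 highest for 7, C2 for 6 and C1 for 6. The mean deviation of the 9 members from their average over the 10 libraries was 0.92 in C5, 0.74 in C2 and 0.34 in C1. It was 0.00 in C4 and −0.36 in C3, and between −0.58 (the library of P2) and −0.19 (P1) in the ParkinAdi mice. Without C2 and C5 together, a choice made after the data were seen, the differences were −0.56 for Hp, −1.21 for Hpx, −0.74 for Saa3, −0.51 for Lbp and −0.38 for Serpina3n. Each is smaller in size than with all mice and keeps its sign.

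Leaving out the library of P2 changed little. The differences were then −0.93 for Hp, −2.0 for Hpx, −1.50 for Saa3, −0.70 for Lbp and −0.68 for Serpina3n, while that of Orm1 went to −0.16. Without C3, the Control f/f mouse that lay with the ParkinAdi mice, they were −1.24 for Hp, −2.39 for Hpx and −2.25 for Saa3. Within the set with longer genes higher the differences were −1.03 for Hp, −1.73 for Hpx, −1.90 for Saa3, −0.62 for Lbp and −0.53 for Serpina3n, and within the other set −0.97, −2.18, −1.43, −0.94 and −1.01 in the same order.

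**Figure D3:**
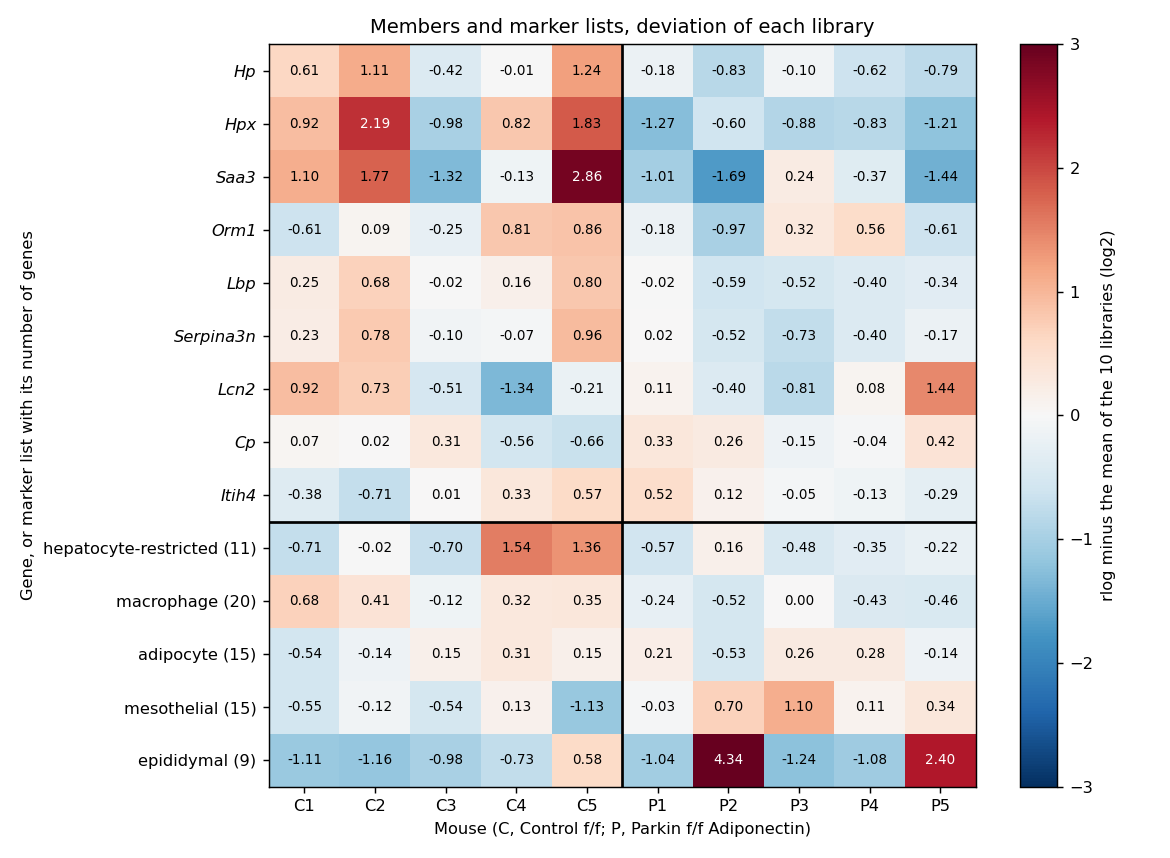
Deviation of each library from the mean of the 10 libraries (rlog, log2 scale) for the 9 members (upper block) and for the mean of 5 marker lists (lower block), with Control f/f mice on the left and Parkin f/f Adiponectin mice on the right. Colours stop at 3, so the 4.34 of epididymal markers in P2 is drawn at the end of the scale. C2 and C5 are high for Hp, Hpx, Saa3, Lbp and Serpina3n, whereas hepatocyte-restricted markers are high in C4 and C5.

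Whether members moved together from mouse to mouse was asked with each genotype centred on its own mean, which removes the genotype difference used to choose them. Over the 10 mice, 24 of 36 pairs had a Pearson r above 0. No such share over pairs of other genes is given here, so this count is not particular to the members. Lbp and Serpina3n were the closest pair, with r = 0.96 (two-sided exact permutation test within genotypes, p = 0.000278, adjusted over 36 pairs 0.010) and Spearman rho = 0.95 (exact permutation p = 0.000486, adjusted 0.0175). The r was 0.93 without the 2 mice farthest from the median and 0.97 when library sets were centred too.

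Hp and Saa3 followed, with r = 0.93 (exact permutation p = 0.00194, adjusted 0.035) and rho = 0.94 (exact permutation p = 0.00278, adjusted 0.05). Their r was 0.84 without the 2 farthest mice and 0.97 with library sets centred. No other pair passed the adjusted threshold. Without C1, C2, C3, C4 or C5, 0 pairs passed it. By contrast, 1 passed without the library of P2 or without P5, and 2 passed without P1, P3 or P4. Leaving out a mouse also leaves fewer arrangements, so a lost call does not show that r rests on that mouse. For Lbp and Serpina3n r was 0.94 without C5 and 0.97 without the library of P2. For Hp and Saa3 it was 0.91 and 0.93.

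Hpx and Saa3 had r = 0.79 (exact permutation p = 0.0415, adjusted 0.249) and rho = 0.67 (exact permutation p = 0.071, adjusted 0.363), and r was 0.66 without the 2 farthest mice. Hp and Hpx had r = 0.78 (exact permutation p = 0.0363, adjusted 0.249) and rho = 0.60 (exact permutation p = 0.136, adjusted 0.377), and their r was 0.48 without the 2 farthest mice, on which it partly rested. Orm1 and Cp had the most negative r, −0.84 (exact permutation p = 0.0102, adjusted 0.122) with rho = −0.73 (exact permutation p = 0.0293, adjusted 0.264). It was −0.85 without the 2 farthest mice and 0.11 once library sets were centred. That relation did not hold within library sets, whose mice share a trend with exon length.

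**Figure D4:**
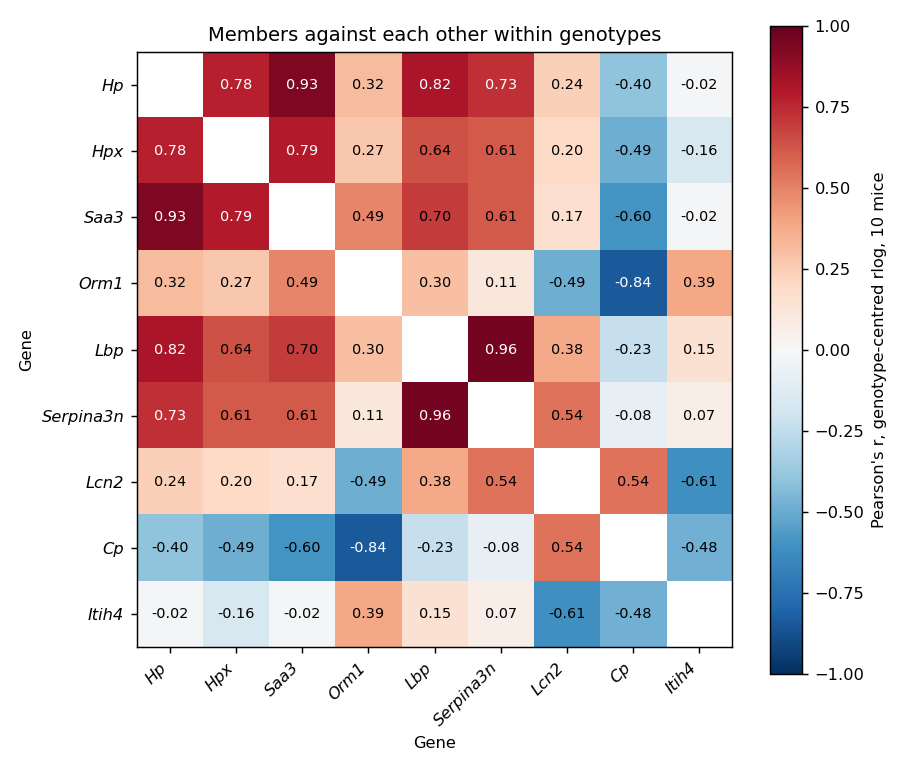
Pearson's r between members over 10 mice, after centring each gene on its mean in each genotype (blue below 0, red above 0). Lbp with Serpina3n (0.96) and Hp with Saa3 (0.93) are the highest, and Orm1 with Cp (−0.84) is the lowest and is 0.11 when library sets are centred as well.

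Since the liver is the main source of hemopexin and Itih4 in plasma, hepatocyte transcripts were read beside the members. Of 26 hepatocyte markers 19 were measured, and their mean ranged from 5.74 to 7.81 in Control f/f and from 6.03 to 6.53 in ParkinAdi mice. Some, such as Cyp2e1 (14.18 to 16.64) and Alb (8.32 to 11.30), were taken from their level to be made by the pad. The trimmed list leaves out these, Vtn and Serpina1a to Serpina1e. Those Serpina1 genes followed the order of Saa3 in the Control f/f mice. Level alone does not set them apart from the genes kept, since Serpina1e was at 5.67 to 8.83 and Mup3 at 4.01 to 7.65. The 11 remaining hepatocyte-restricted markers, a list trimmed after values were seen, had means of 5.92 in C4 and 5.74 in C5 and of 3.67 to 4.54 in the other 8 libraries. Mup3, a major urinary protein of liver, was at 7.65 and 7.59 in C4 and C5 and at 4.01 to 5.72 elsewhere.

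The 4 Control f/f mice with high Hpx included C4 and C5, the libraries with the most hepatocyte transcripts, and also C1 and C2. C5 had an Hpx of 7.61 at a list mean of 5.74. C1 had the lowest mean of the hepatocyte-restricted markers (3.67) and an Hpx of 6.69, close to the 6.59 of C4, which had the highest mean (5.92). C2 had the highest Hpx (7.96) and a mean of 4.36. Within genotypes the r of Hpx with the trimmed list was 0.44 (rho 0.25) over 10 mice and 0.61 with library sets centred, given without a test. With all 19 hepatocyte markers it was 0.62 (exact permutation p = 0.218, adjusted over 45 relations 0.769), with rho = 0.38 (exact permutation p = 0.368, adjusted 0.904), and 0.87 with library sets centred. The r with the trimmed list was 0.12 for Hp (rho −0.09) and 0.23 for Saa3 (rho −0.02), and 0.06 and 0.11 with library sets centred. The trimming took out the Serpina1 genes, which followed Saa3, so a lower r of Saa3 and Hp was partly built in. With all 19 markers r was higher, at 0.38 for Hp (rho 0.14) and 0.49 for Saa3 (rho 0.18). These became 0.62 and 0.68 with library sets centred, and −0.58 and −0.53 without the 2 farthest mice. The part of liver transcripts in the members' differences was not tested. Itih4 was high in C4 and C5 and also in P1, whose mean of the list was 3.81, and its r of 0.56 (rho 0.56) was −0.66 once library sets were centred.

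**Figure D5:**
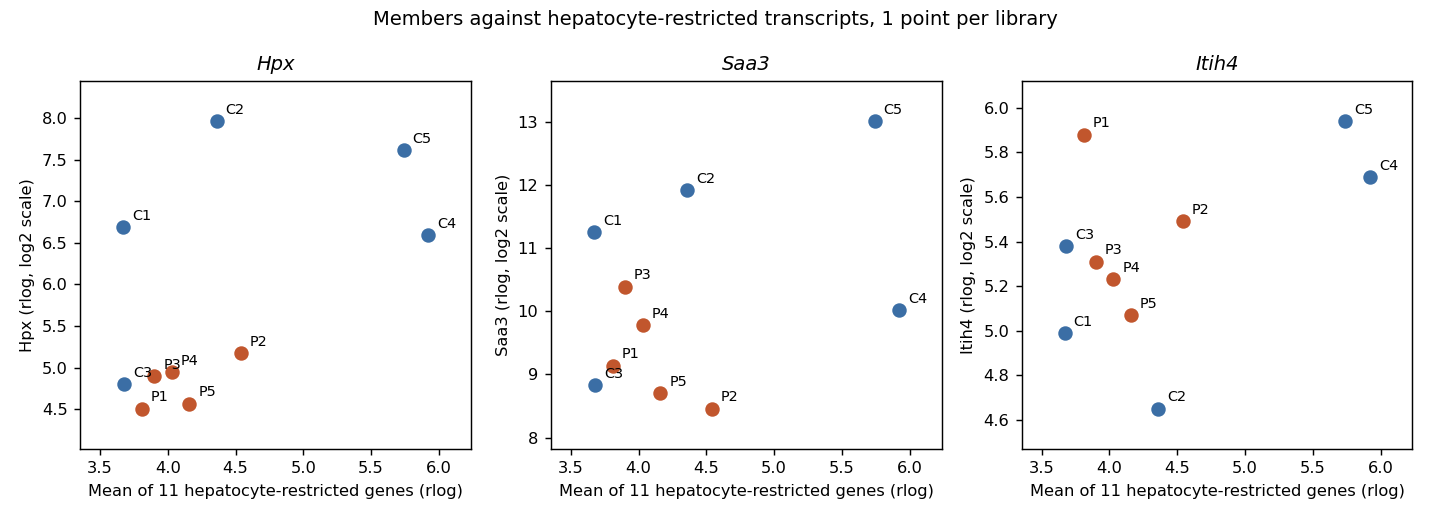
Hpx, Saa3 and Itih4 (rlog, log2 scale) against the mean of 11 hepatocyte-restricted genes (rlog), 1 point per library, Control f/f in blue and Parkin f/f Adiponectin in orange. C4 and C5 stand to the right at 5.92 and 5.74, while C1 and C2 have high Hpx and Saa3 at 3.67 and 4.36.

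Macrophage markers moved in the same direction as Hp, Hpx, Saa3, Lbp and Serpina3n. Of 20 markers 19 had a difference below 0 and 11 were lower at an unadjusted p under 0.05 (0 after adjustment), and their mean was 10.84 to 11.64 in Control f/f and 10.44 to 10.96 in ParkinAdi mice. Over all genes 43.1% were below 0 and 3.56% were lower at that p. The 20 include Lpl, which is also listed as an adipocyte marker and differed by −0.09. Lyz2, the lysozyme of macrophages, was at 13.18 to 14.82, and the lowest value of any of the 20 in any library was 6.44. Within genotypes the list mean had r = 0.70 with Hp (rho 0.70; exact permutation p = 0.0386 and 0.0326, adjusted over 45 relations 0.584 and 0.578), and r = 0.66 with Saa3 (rho 0.62; exact permutation p = 0.066 and 0.0729, adjusted 0.594 and 0.578). Both were 0.62 without the 2 farthest mice. For the other 3 genes r was lower, at 0.51 for Hpx (−0.14 without the 2 farthest mice), 0.32 for Lbp and 0.16 for Serpina3n, with rho of 0.19, 0.44 and 0.31 (exact permutation, smallest adjusted p 0.769 for r and 0.775 for rho). The part of these cells in the members' difference was not tested.

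Of the 45 relations between members and marker lists, 0 passed the adjusted threshold by Pearson's r. The closest was Orm1 with adipocyte markers, at r = 0.85 (exact permutation p = 0.00444, adjusted 0.2), rho = 0.82 (p = 0.0112, adjusted 0.506, exact permutation), and r was 0.78 both without the 2 farthest mice and with library sets centred. Adipocyte markers had means of 14.78 to 15.63 in Control f/f and 14.79 to 15.60 in ParkinAdi mice, with a median difference of 0.02 over the 15. Mesothelial markers had a difference above 0 for all 15 measured genes, with 11 higher at an unadjusted p (0 after adjustment) and list means of 7.08 to 8.35 against 8.19 to 9.31, and C5 was the lowest library (7.08). Over all genes 1.46% were higher at an unadjusted p under 0.05. Neutrophil markers, a source of Lcn2 in blood, had list means of 4.61 to 5.30 and 4.37 to 5.10.

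Other acute phase genes of the pad leaned the same way as the 5 members. Of 35 listed genes 27 were tested, 23 had a difference below 0, 7 were lower and 0 higher at an unadjusted p under 0.05, and the median difference was −0.40 against 0.03 over all genes. Over all genes 43.1% were below 0 and 3.56% were lower at that p. None of the list passed after adjustment in limma. The list is not independent of the members, because it holds their paralogs, which can share reads with them. Of the 7, Saa1, Serpina3g and Serpina3m are such paralogs. Il1rn, the interleukin-1 receptor antagonist, was at 8.99, 8.5, 6.90, 7.64 and 8.55 in C1 to C5 and at 6.76, 6.49, 6.33, 6.63 and 6.33 in P1 to P5, with no overlap and a difference of −1.61 (standard error 0.35, limma adjusted p = 0.62). C3 was again the lowest Control f/f mouse.

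Lrg1 (leucine-rich alpha-2-glycoprotein) differed by −0.86 (standard error 0.25, limma adjusted p = 0.66), S100a8 (a calcium-binding alarmin of myeloid cells) by −1.28 (standard error 0.46, limma adjusted p = 0.774) and Timp1 (an inhibitor of metalloproteinases) by −0.74 (standard error 0.26, limma adjusted p = 0.745). Lrg1 and S100a8 were highest in C5 and C2, as Hp and Saa3 were. S100a9, on the same list and named after its values were seen, differed by only −0.20 (standard error 0.48). It was at 2.55 to 4.84, below the 7.62 to 10.62 of S100a8. Saa1 was at 4.63, 5.36, 2.66, 3.63 and 6.05 in C1 to C5 and at 2.67 to 3.91 in ParkinAdi mice. Its order within the Control f/f mice was that of Saa3, at low levels.

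Saa2, at 2.44 to 5.31, was too low to be tested, and its values had the same order as Saa3 in the Control f/f mice. Of the 4 genes with a difference above 0, the largest, named after their values were seen, were Orm3 at 0.74 (standard error 0.58), Fgl1 (a fibrinogen-like protein of liver) at 0.59 (standard error 0.33) and Agt (angiotensinogen) at 0.36 (standard error 0.24). Orm2 differed by −0.44 with an order of libraries like that of Orm1, its neighbour, with 9.68 and 9.72 in C4 and C5. C3, the central complement component, was at 13.45 to 14.76 in Control f/f and at 13.32 to 13.93 in ParkinAdi mice (difference −0.40, limma adjusted p = 1), and Itih5, a relative of Itih4, differed by −0.08.

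Genes that induce the acute phase response were read beside the shares over all genes tested. Those shares were 3.56% lower and 1.46% higher at an unadjusted p, and 43.1% below 0. Of 28 listed 23 were tested, with 1 lower and 0 higher at an unadjusted p, 16 below 0 and a median difference of −0.08. The 1 was Tnf (tumour necrosis factor), at 4.11 to 5.26 in Control f/f and 3.40 to 4.90 in ParkinAdi mice, with a difference of −0.74 (standard error 0.31, limma adjusted p = 0.914). Il6, the main hepatic inducer, stayed between 0.54 and 1.20 in all 10 libraries and was not tested, and Il1b, at 3.01 to 4.08, differed by −0.31.

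The transcription factors of the response and their feedback genes overlapped between genotypes. Socs3, a feedback inhibitor that STAT3 induces, was at 6.70 to 7.07 and 6.45 to 7.13 and differed by −0.18 (standard error 0.16). Cebpb differed by −0.19 (standard error 0.22), Cebpd by 0.30 (standard error 0.30) and Cebpa, at 13.26 to 14.34, by 0.08. Il6st, the shared signalling subunit of the interleukin-6 family, was at 11.91 to 13.06 and differed by −0.08, and Tnfrsf1a, a receptor of Tnf, by −0.14.

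The receptors of haptoglobin and hemopexin complexes overlapped between genotypes. Cd163, the macrophage receptor for haptoglobin bound to hemoglobin, was at 10.26, 10.34, 10.75, 10.02 and 9.95 in C1 to C5 and at 10.72, 10.53, 10.20, 10.10 and 10.42 in P1 to P5. Its difference was 0.13 (standard error 0.18), with the groups overlapping across most of their range, whereas Hp differed by −1.01. Lrp1, the receptor for hemopexin bound to heme, was at 12.75 to 14.14 and differed by −0.13 (standard error 0.29).

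Of the 12 listed receptors and partners 10 were tested, and 1 was lower and 0 higher at an unadjusted p under 0.05. Over all genes 3.56% were lower and 1.46% higher at that p, and with 10 genes the count is too small to set against these shares. The 1 gene was Tlr2, at 7.81 to 8.47 in Control f/f and 7.48 to 7.95 in ParkinAdi mice, with a difference of −0.46 (standard error 0.16, limma adjusted p = 0.707). The largest difference of the list was that of Lrp2, named after its values were seen, at 0.66 (standard error 0.68), which was 0.31 without the library of P2. Lrp2 encodes megalin, which can take up lipocalin 2. Tlr4, the receptor that answers to lipopolysaccharide delivered by Lbp, differed by −0.21, its partner Ly96 by 0.24, and Scarb1, a lipoprotein receptor that takes up serum amyloid A, by −0.16.

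Hmox1 and Slc11a1 had the largest differences of the heme and iron genes. Hmox1, heme oxygenase 1, was at 10.69, 10.74, 10.25, 10.39 and 10.80 in C1 to C5 and at 9.91, 9.61, 10.01, 9.91 and 9.83 in P1 to P5. The groups did not overlap, and the difference was −0.72 (standard error 0.14, limma adjusted p = 0.62) and −0.66 without the library of P2. C5 and C2 were the highest and C3 the lowest of the Control f/f mice, the same extremes as for Hp.

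Slc11a1, an iron transporter of macrophage phagosomes, differed by −0.83 (standard error 0.19, limma adjusted p = 0.62), Steap3 (a ferrireductase) by −0.40 (standard error 0.14, limma adjusted p = 0.755) and Slc48a1 (a heme transporter) by −0.41 (standard error 0.16, limma adjusted p = 0.866). Flvcr2 (0.52, standard error 0.24) and Abcg2 (0.51, and 0.13 without the library of P2), named after their values were seen, had the largest differences above 0. Of 26 tested, 4 were lower and 0 higher at an unadjusted p under 0.05, and 15 were below 0. Over all genes 3.56% were lower and 1.46% higher at that p, and 43.1% were below 0. The median difference of the 26 was −0.08, against 0.03 over all genes. Fth1, the ferritin heavy chain, was at 15.40 to 16.53 and differed by −0.08. Of 10 red cell markers 8 were measured, with list means of 8.94 to 9.87 in Control f/f and 8.87 to 9.87 in ParkinAdi mice, and Hbb-bt, a beta globin, differed by 0.03.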

How the data were processed

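The data are RNA-seq of mouse eWAT, with 10 libraries of the Parkin experiment and the pads injected with AAV8. By the study's methods, frozen tissue was lysed in Trizol, RNA with a RIN above 7 was made into libraries with an mRNA kit and sequenced in 2 pools, reads were checked with FastQC and aligned and counted with Rsubread 2.4.2 (GRCm38, annotation version 97), and counts were handled in DESeq2 1.30.0. How libraries were split over pools was not given in the sources used here.

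The n per genotype in a figure legend of the study is below the number of libraries deposited, the legend does not name the mice, and all 10 libraries were used.

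The authors deposited rlog values, which are log2 values, of each library of the Parkin experiment. They also deposited a table per experiment with a mean normalized count for every gene (a signal that sums to no set total), used here as the authors' mean. The same tables hold the authors' own fold changes, standard errors, statistics, p-values and adjusted p-values, which were not used. Values per pad and counts were not analysed here, so vectors were not compared and no count test was run.

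Genes with a mean rlog of at least log2 of 10 were kept (19012) and genotypes compared with limma 3.58.1 in R 4.3.3 (intensity trend, no covariate, two-sided, Benjamini-Hochberg), after the fit had been tested on simulated data. Correlations used genotype-centred values and an exact permutation test over 14400 arrangements within genotypes (smallest p 6.94e-05), in Python 3.11.15. Exon lengths are from GENCODE M21. The members and lists were chosen with earlier results of these data known. Named genes are all members, in each partner list the 4 smallest p and 2 highest means, 10 receptors, inducers and paralogs chosen by name, and in marker lists the 2 highest means and the gene that shows a library standing apart most. Alternatives were other filters, scalings, moderation, library weights, a library set term, each library set alone, Spearman correlation and leaving out each mouse. 1 item of the rule for named genes is not reported here.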

Additional observations from a re-analysis of the deposited data

Results flagged for a closer look

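In 2 of 62 groups of 5 libraries examined, 1 library stood apart from the other 4 by more than the critical gap for groups of this size, and chance flags about 1 in 20 such groups. Saa2, a close paralog of Saa3, was at 3.23 in P3 against 2.44 to 2.56 in the other ParkinAdi mice. These are low values of a gene that did not pass the filter. P3 also had the highest Saa3 of that genotype (10.39). The mean of epididymal markers was 6.67 in C5 against 4.93 to 5.36 in C1 to C4, and C5 was the highest library for 6 of the 9 members. Whether the epididymal transcripts of C5 bear on those members was not tested.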

How the results depend on the processing

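Of 179 alternative values of the members' differences, 176 moved by less than 1 SD, and 7 changed sign, all of them of Lcn2 or Itih4. The others that moved were Hpx (−2.95) and Itih4 (0.69) with library weights and Itih4 (−0.55) within the 4 libraries with longer genes lower. The median of the members was −0.84 to −0.57 with 1 mouse left out. Genes lower at an adjusted p numbered 438 with library weights and 0 to 11 with 1 mouse left out (11 without C3), and those higher 105 with library weights and 0 in each of the fits that left out 1 mouse. At an unadjusted p, genes lower numbered 1394 with a library set term, 1823 with library weights and 440 to 832 with 1 mouse left out, and genes higher 144 with a minimum of log2 of 50, 185 with quantile normalization, 842 with a library set term, 1452 with library weights and 133 to 387 with 1 mouse left out. Of 241 alternatives of list medians, 236 moved by less than 1 SD. The others were, within the 4 libraries with longer genes lower, heme and iron genes (−0.02), hepatocyte (−1.53), epididymal (−1.03) and progenitor markers (0.07), and neutrophil markers with a minimum of log2 of 50 (−0.77). Member pairs passing the adjusted threshold numbered 1 by Spearman's rho, 0 with library sets centred too, where the 144 arrangements allow no adjusted p under 0.25, and 0 to 2 with 1 mouse left out. The cause of these changes was not tested. No paired analysis was possible because the deposited columns carry no replicate number of the labels and the injected pads have no values of their own. The rlog scale hides depth, so low members such as Itih4 and Hpx have an unknown counting error.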

Other observations

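The Serpina1 genes, which encode alpha-1-antitrypsins, were listed as hepatocyte markers but followed the order of Saa3 in Control f/f mice. Serpina1b, chosen after its values were seen, was at 10.45, 10.97, 8.05, 8.59 and 12.03 in C1 to C5 and at 10.27, 9.33, 8.5, 10.32 and 9.48 in P1 to P5. It was highest in C5, C2 and C1 and lowest in C3, whereas Mup3 was high in C4 and C5, and its genotypes overlapped (difference −0.44, limma adjusted p = 1). The 5 Serpina1 genes are near-identical copies and can share reads.

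Lep, the adipocyte hormone leptin, also chosen after its values were seen, was at 16.41, 16.85, 16.19, 16.35 and 17.06 in C1 to C5 and at 16.25, 15.41, 15.63, 15.49 and 15.76 in P1 to P5. C5, C2 and C1 were again the highest libraries and P1 lay just above C3.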
